A study of Mus musculus with 12 samples.

Results

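A set of 7 genes of inflammation and metal binding were followed across both cell types: the chemokine gene Cxcl3, the chitinase-like gene Chi3l1, the haptoglobin gene Hp, the signalling adaptor gene Traf1, the metallothionein gene Mt2, the adhesion molecule gene Icam1 and the co-receptor gene Cd14. These 7 of the 2477 gene names in the deposited expression tables were chosen by their deposited RPKM values, being lower with 4-hydroxytamoxifen (4-OHT) in fibroblasts or higher with it in neural progenitors. The direction of each is therefore a description, and no test was made on it. The study holds 12 RNA libraries, 3 in each of 4 groups. Mouse embryonic fibroblasts (MEF, E14.5 embryos, passage 1, grown to confluence) received 50 nM 4-OHT or the same volume of ethanol for 24 h. Neural progenitor cells (NPC, neurospheres of the E14.5 cortex, day 4, grown with EGF and FGF) received the same 2 treatments. All 4 groups carried the genotype Prmt5 F/FER on a mixed C57BL/6 X 129S1/SvlmJ background, in which 4-OHT deletes Prmt5, an arginine methyltransferase gene. No library is labelled as 4-OHT on cells without the conditional allele, so the agent and the loss of Prmt5 cannot be told apart. The labels do not say whether replicates were separate cultures or embryos.

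Several of these inflammatory genes, Cxcl3, Traf1 and Icam1 among them, are classical targets of NF-kB, a transcription factor held in the cytoplasm by inhibitors until signals such as TNF, interleukin 1 or bacterial lipopolysaccharide release it. It then drives genes of chemokines, adhesion molecules and signalling adaptors, and also genes of its own inhibitors. Metallothioneins are small, cysteine-rich proteins that bind zinc and copper. Their genes respond to metals through the factor MTF1 and to glucocorticoids, cytokines and oxidative stress. In the brain, astrocytes are a main source of metallothioneins, and Chi3l1 and Icam1 are known as genes of activated glia.

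Each deposited expression table gives 1 value per arm in RPKM, a read count scaled to transcript length and to the number of mapped reads, and the variation among the 3 libraries of an arm is therefore unknown for every gene. The tables list only genes whose Cuffdiff p, which is unadjusted, is below 0.05 and whose fold exceeds 1.5. For a gene outside the list no value is at hand, and it cannot be called stable. Read totals per library are not stated, so sequencing depth is unknown. The targeted gene, Prmt5, stood at 3.76 RPKM with 4-OHT and 20.96 RPKM with ethanol in MEF, and at 4.92 and 33.4 RPKM in NPC, in the authors' deposited table. Of the markers fixed for the labelled cell types, 0 of 12 fibroblast markers are listed in MEF, and Hes5 is the single one of 10 progenitor markers listed in NPC, so the tables allow no check of cell identity by level.

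Promoter sequences are shown for genes whose windows held a motif of the pathways above: Cxcl3, Mt2 and its neighbour Mt1, which was lower in MEF beside Mt2. Each is the 250 bases before the annotated start, from RefSeq on GRCm38.p6, on the plus strand, which is the coding strand of these genes. The build of the deposited data is mm9, so these positions belong to the reference alone. Windows were at hand for 4 of the 7 members, Cxcl3, Traf1, Mt2 and Icam1. Capitals mark the motif matches.
Cxcl3, chr5:90785851-90786100: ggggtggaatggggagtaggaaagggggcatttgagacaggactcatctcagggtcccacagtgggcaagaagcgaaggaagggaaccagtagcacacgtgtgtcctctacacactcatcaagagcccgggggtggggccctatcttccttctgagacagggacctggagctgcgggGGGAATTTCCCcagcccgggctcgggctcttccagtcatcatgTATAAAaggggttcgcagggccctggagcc
Mt2, chr8:94172368-94172617: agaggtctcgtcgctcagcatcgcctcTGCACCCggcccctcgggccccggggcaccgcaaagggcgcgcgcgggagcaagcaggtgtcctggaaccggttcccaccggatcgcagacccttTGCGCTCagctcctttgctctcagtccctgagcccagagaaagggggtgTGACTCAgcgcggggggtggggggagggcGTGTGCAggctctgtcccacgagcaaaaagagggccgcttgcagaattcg
Mt1, chr8:94178839-94179088: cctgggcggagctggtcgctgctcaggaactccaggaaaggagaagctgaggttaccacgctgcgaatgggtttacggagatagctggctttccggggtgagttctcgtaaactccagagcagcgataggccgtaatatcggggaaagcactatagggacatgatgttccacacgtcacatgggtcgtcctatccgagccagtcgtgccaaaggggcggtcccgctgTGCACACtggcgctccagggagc

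In the Cxcl3 window the capitals mark a pair of NF-kB consensus matches, shifted by 1 base on opposite strands because the site is nearly palindromic, and a TATA box (TATAAA). The NF-kB consensus, searched on both strands, was present in 7.25% of the 32851 windows of the same length in the RefSeq table, and the TATA box in 12.4%. In the Mt2 window they mark 3 matches to the metal response element core (TGC, then A or G, then C, any base and C), at bases -223, -128 and -50 from the start, and an AP-1 match (TGANTCA) at -79. The Mt1 window held 1 metal response element match, at -23. A metal response element match was found in 21.4% of all windows and at least 2 matches in 5.17%, and an AP-1 match in 6.75%. GC content was 67.6% in the Mt2 window and 60.0% in the Cxcl3 window, against a median of 52.4% over all windows. None of the 5 motifs searched, which also included a C/EBP motif (TTGCNNCAA, in 1.74% of windows), was found in the windows of Icam1 and Traf1, or in that of Mt3, a metallothionein gene listed beside Mt2 in NPC. A match is a run of letters and not a measured binding site. Bases outside these windows, those after the annotated start among them, were not searched. The matches therefore describe the window alone and not the whole promoter of a gene.

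**Figure D1:**
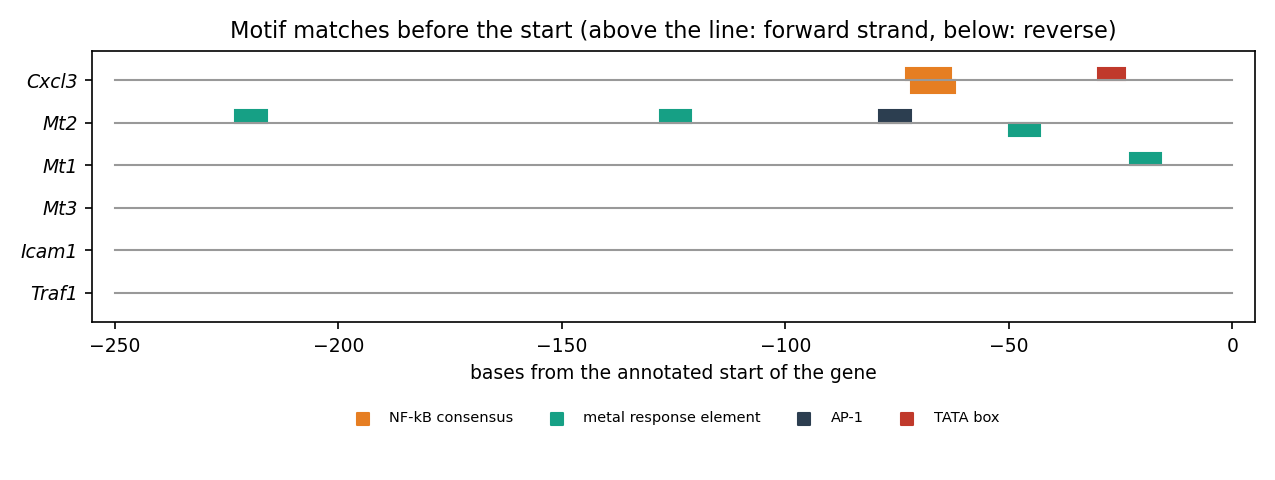
Motif matches in the 250 bases before the annotated start of 6 genes; the x axis is the distance from the start in bases, and boxes above or below a line are matches on the forward or reverse strand. Cxcl3 holds the NF-kB and TATA box matches, Mt2 holds 3 metal response element matches and Mt1 holds 1, and no match lies in the Mt3, Icam1 and Traf1 windows.

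In MEF, 5 of the 7 members are listed, and all 5 were lower with 4-OHT, the choice having fixed that direction. Among all genes, 55 are listed as lower in MEF, which is 0.0994% of 55341 annotated gene names and 49.5% of the 111 listed genes. Icam1 and Cd14 are not listed in MEF. The 5 levels ran from Mt2, first in level of the 111 genes in both arms, to Traf1, at rank 97 with 4-OHT and 86 with ethanol, with 25 listed genes below it in ethanol. Their fold changes were close together, from 2.21-fold lower for Hp to 2.73-fold lower for Traf1, beside a median of 1.85-fold over all lower genes of the table. By size of fold they held ranks 5, 7, 8, 9 and 11 among the 55 lower genes.

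Cxcl3, a chemokine that draws neutrophils through the receptor CXCR2, stood at 8.29 RPKM with 4-OHT and 20.8 RPKM with ethanol in MEF. That is 2.50-fold lower, with a Cuffdiff p of 0.00938 in the authors' deposited table. Its transcript shares a stretch of 110 identical bases with that of Cxcl2, a close paralog, and how reads common to both were assigned is not given in the sources used here. Neither Cxcl1 nor Cxcl2 is listed in either cell type. The other listed gene of the 13 Cxcl names is Cxcl13, a B cell chemokine, listed at 0.0477 RPKM with 4-OHT and at 0 with ethanol. Its direction was opposite to that of Cxcl3. At values this close to 0, with depth unknown, no difference within the family is shown.

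Hp and Chi3l1 encode secreted proteins. Hp, haptoglobin, which binds free haemoglobin and belongs to the acute phase proteins of the liver, stood at 34.4 RPKM with 4-OHT and 76.2 RPKM with ethanol in MEF. It was 2.21-fold lower, with a Cuffdiff p of 0.0196 in the authors' deposited table. Chi3l1, a chitinase-like glycoprotein without chitinase activity, stood at 2.60 RPKM with 4-OHT and 6.41 RPKM with ethanol. It was 2.47-fold lower, with a Cuffdiff p of 0.0308 in the authors' deposited table. Hp thus kept a level above the ethanol level of Chi3l1 and Cxcl3 in both arms.

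Traf1, an adaptor of TNF receptor family signalling and a classical NF-kB target, had the lowest level of the 5. It stood at 0.471 RPKM with 4-OHT and 1.29 RPKM with ethanol in MEF, 2.73-fold lower. At this level the fold depends on a pseudocount: its log2 value is -1.45 as deposited, the widest of the 5, but -1.28 after adding 0.1 RPKM, behind Mt2 and Cxcl3, and -0.64 after adding 1 RPKM, the smallest of the 5. Its Cuffdiff p of 0.0484 in the authors' deposited table is rank 108 of 111, close to the limit of listing. The highest listed p is 0.0492, for Fkbp11. No other gene named Traf with a number is listed in MEF or NPC.

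Mt2 was by far the most abundant member. In MEF it stood at 201 RPKM with 4-OHT and 503 RPKM with ethanol, 2.51-fold lower, with a Cuffdiff p of 0.00231 in the authors' deposited table. On the RPKM scale the difference between the arms was -303 for Mt2, -41.8 for Hp and -12.5 for Cxcl3. Mt1, its paralog and next coding gene on chromosome 8 in GRCm38.p6, stood at 128 RPKM with 4-OHT and 264 RPKM with ethanol, 2.06-fold lower, with a Cuffdiff p of 0.00493 in the authors' deposited table. Together the pair came to 329 RPKM with 4-OHT and 767 RPKM with ethanol, and Mt2 stood at 1.57 times Mt1 with 4-OHT and 1.91 times with ethanol. The longest stretch of identical bases shared by transcripts of Mt2 and Mt1 is 20.

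In NPC, 3 of the 7 members are listed, Mt2, Icam1 and Cd14, and all 3 were higher with 4-OHT. Here too the choice had fixed the direction. Among all genes, 1367 are listed as higher in NPC, which is 2.47% of the annotated gene names and 56.6% of the 2416 listed rows. Cxcl3, Chi3l1, Hp and Traf1 are not listed in NPC, so no value can be set beside their MEF values. None of the 7 members has a listed event in the splicing tables, which cover 60 genes in MEF and 222 in NPC.

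**Figure D2:**
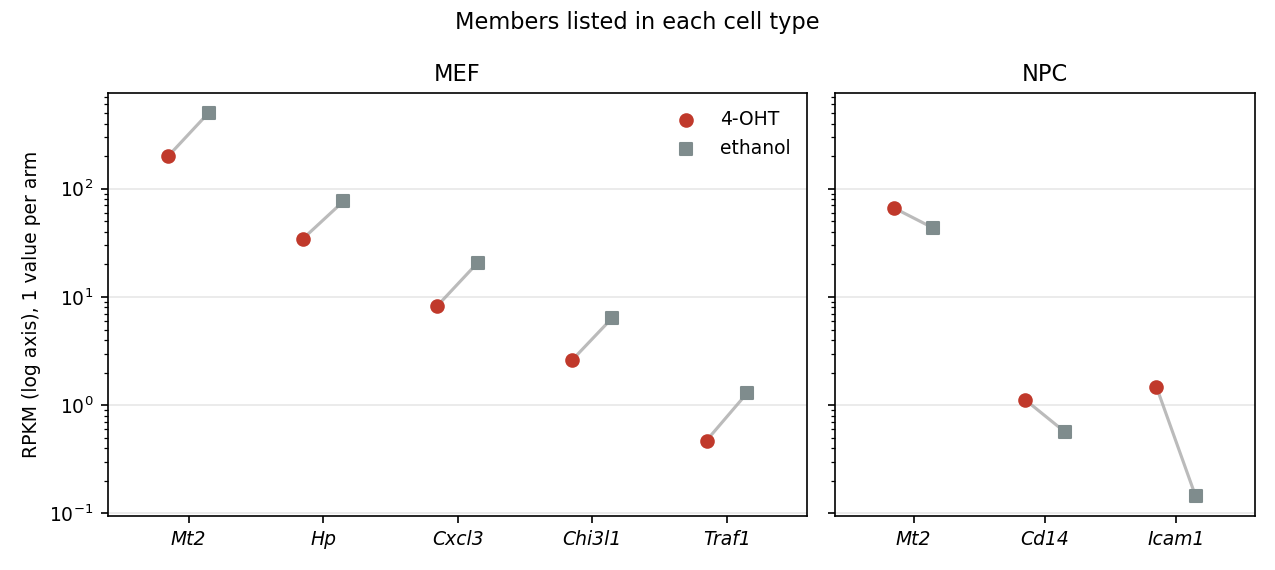
RPKM of each listed member in MEF (left) and NPC (right) on a log axis; red circles are the 4-OHT arm and grey squares the ethanol arm, each the authors' single value for 3 libraries, with no error available. The 5 lines of MEF run at nearly the same slope from 0.471 to 503 RPKM, while in NPC that of Icam1 is much steeper than those of Mt2 and Cd14.

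Icam1, the adhesion molecule that leukocyte integrins such as LFA-1 bind, had the widest fold of all members. It stood at 1.48 RPKM with 4-OHT and 0.143 RPKM with ethanol in NPC, 10.3-fold higher, and is rank 12 by fold of the genes listed as higher with a value above 0 in ethanol. The authors' deposited table gives its Cuffdiff p as 0. The ethanol value is low, so a pseudocount weighs on the fold: on the log2 scale the difference is 3.37 as deposited, 2.70 after adding 0.1 RPKM and 1.12 after adding 1 RPKM. Itgb2, the beta chain of LFA-1, stood at 0.0968 RPKM with 4-OHT and 0.0149 RPKM with ethanol, both very low, with a Cuffdiff p of 0.00250 in the authors' deposited table.

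Cd14, which hands lipopolysaccharide to the receptor TLR4, stood at 1.12 RPKM with 4-OHT and 0.569 RPKM with ethanol in NPC. It was 1.97-fold higher, with a Cuffdiff p of 0.00208 in the authors' deposited table, and it lies close to the median of the higher genes, 1.99-fold. Its receptor Tlr4 stood at 0.164 RPKM with 4-OHT and 0.0532 RPKM with ethanol, and Tlr5, a flagellin receptor, at 0.164 RPKM and 0.0520 RPKM. Tlr2, a receptor of bacterial lipopeptides, stood at 0.202 RPKM with 4-OHT and 0.105 RPKM with ethanol. The 3 listed Toll-like receptor genes were thus higher, at levels below that of Cd14 in either arm. Of 13 names of Cd14 and the Toll-like receptors, 4 are listed in NPC, and the others have no value. Under 2 RPKM in the higher arm, 77.9% of all listed NPC genes were higher.

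Mt2 stood at 66.3 RPKM with 4-OHT and 43.2 RPKM with ethanol in NPC, 1.53-fold higher, with a Cuffdiff p of 7.26e-05 in the authors' deposited table. The fold is near the limit of listing: its log2 value is 0.62, and the smallest listed rises, for Slc36a1 and Hivep2, are 0.59. The metallothionein listed beside it was Mt3, the neighbour on its other side and the brain-enriched member of the family, at 521 RPKM with 4-OHT and 299 RPKM with ethanol, 1.74-fold higher. Its Cuffdiff p was 5.28e-09 in the authors' deposited table. Mt3 stood at 7.86 times Mt2 with 4-OHT and 6.91 times with ethanol. Mt1 is not listed in NPC, and Mt3 is not listed in MEF.

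Mt2 is the single member listed in both cell types, and its directions were opposite, with log2 fold changes of -1.33 in MEF and 0.62 in NPC. Because it was chosen for this pattern, the difference was not tested. The Mt2 level in MEF was 3.02 times that in NPC with 4-OHT and 11.6 times with ethanol, although the 2 tables were normalised separately. Of 49 genes listed in both tables, 4 were lower in MEF and higher in NPC, 3 were the reverse, 27 were lower and 15 higher in each of the cell types. Beside Mt2, the 4 included Pdk1, a kinase gene that restrains pyruvate oxidation, with log2 fold changes of -0.79 in MEF and 0.79 in NPC. Phyh, a gene of peroxisomal phytanic acid oxidation, had -0.71 and 1.38, and Gm4349 had -1.75 and 0.98 at levels under 1 RPKM throughout.

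**Figure D3:**
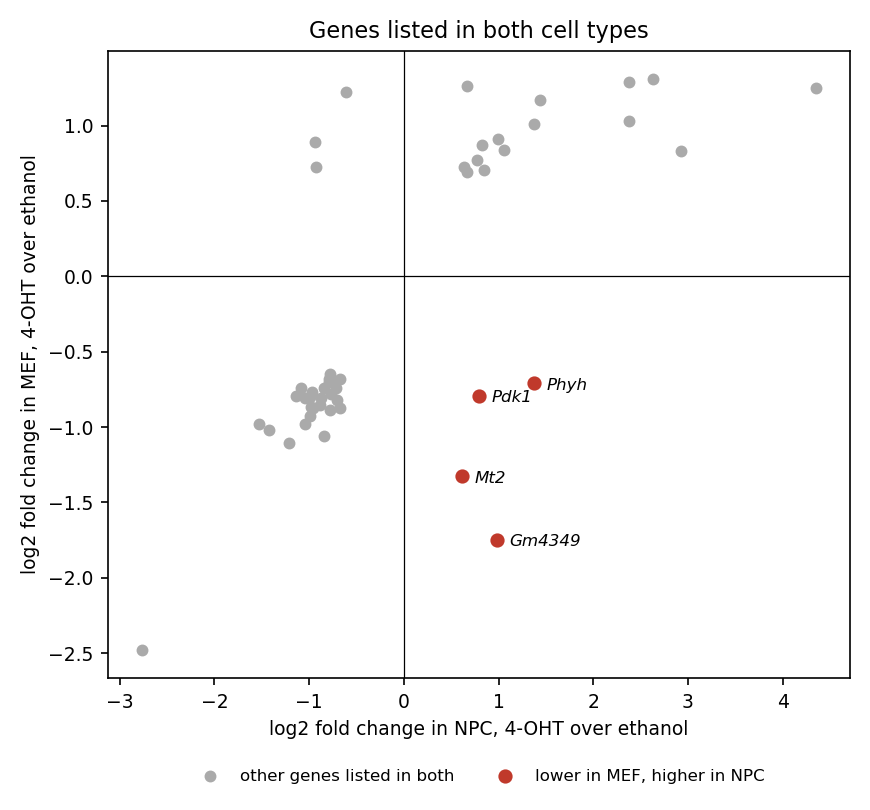
Log2 fold change of 4-OHT over ethanol in NPC (x axis) and in MEF (y axis) for each of the 49 genes listed in both tables. Red points are the 4 genes lower in MEF and higher in NPC, Mt2 among them, and most grey points lie in the quadrants of equal direction.

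Stricter limits were applied to both tables. In MEF a Cuffdiff p under 0.01 was held by 2 members, Mt2 and Cxcl3, and by 6 of all 55 lower genes (5.41% of listed genes). An upper bound of the adjusted p was also set (Benjamini-Hochberg, all annotated gene names counted as tested). With the bound under 0.05, 0 members passed in MEF, beside 1 of the 55 lower genes (0.901% of listed genes). A log2 fold change of -1 or below was held by all 5 MEF members and by 16 of the 55 lower genes (14.4% of listed genes). All 5 reached 1 RPKM in the higher arm, as did 53 of the 55 lower genes (47.7% of listed genes). In NPC the p limit was met by 3 members and by 1139 of all 1367 higher genes (47.1% of listed genes). The limit of the bound was met by Icam1 and Mt2 and by 947 of the 1367 (39.2% of listed genes). The fold limit, a log2 value of 1, was reached by Icam1 alone of the NPC members and by 680 of the 1367 higher genes (28.1% of listed genes). A level of 1 RPKM in the higher arm was reached by 3 members and by 824 of the 1367 (34.1% of listed genes).

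The wider pathways were counted over 6 lists with 129 genes, which include the members. In MEF, 9 list genes are listed and all 9 were lower, but 5 of them are members whose fall was the reason for choosing them. Without the members, 4 of 122 genes are listed in MEF, Ccl20, Ptx3, Irak3 and Mt1, and all 4 were lower. Their median log2 fold change was -0.95, close to the median of -0.88 over all genes listed as lower, beside 49.5% lower among all listed genes. In NPC, 23 list genes are listed and all 23 were higher. Without the members these were 20 of 122, with a median of 0.97, beside 56.6% higher among all listed genes, whose higher genes had a median of 1.00. The lists were drawn up with earlier results of these data known, and these counts carry no test.

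Chemokine and cytokine genes were listed at 2 of 27 in MEF and 4 of 27 in NPC. Ccl20, the ligand of CCR6, stood at 72.9 RPKM with 4-OHT and 142 RPKM with ethanol in MEF, 1.94-fold lower, with a Cuffdiff p of 0.0485 in the authors' deposited table. In NPC the genes were others. Cx3cl1, a membrane-bound chemokine of neurons, stood at 10.8 RPKM with 4-OHT and 5.69 RPKM with ethanol, and Lif, a cytokine of the interleukin 6 family, at 1.03 RPKM and 0.391 RPKM. Il33 and Il34 were higher as well, with log2 fold changes of 1.01 and 1.46, at under 1 RPKM in both arms.

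Acute phase and secreted innate genes were listed at 3 of 21 in MEF and 4 of 21 in NPC. Ptx3, a long pentraxin that binds microbes and complement, stood at 125 RPKM with 4-OHT and 241 RPKM with ethanol in MEF, 1.92-fold lower, with a Cuffdiff p of 0.0300 in the authors' deposited table. In NPC, Cp, the copper-carrying ferroxidase ceruloplasmin, stood at 5.22 RPKM with 4-OHT and 1.65 RPKM with ethanol. Serpina3n, a protease inhibitor known from reactive astrocytes, stood at 1.26 RPKM with 4-OHT and 0.657 RPKM with ethanol. The complement genes Cfb and C3 were higher too, with log2 fold changes of 0.80 and 1.47, below 1 RPKM in each arm.

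Of 26 NF-kB and TNF receptor genes, the member Traf1 is listed in MEF, where 111 genes are listed in all, and 5 are listed in NPC, all higher, where 2416 rows are listed. The TNF receptor gene Tnfrsf1a stood at 33.0 RPKM with 4-OHT and 21.1 RPKM with ethanol in NPC. The kinase gene Ikbke, the inhibitor gene Tnfaip3 and the NF-kB targets Birc3 and Tnfaip2 were all under 0.5 RPKM, with log2 fold changes of 1.49, 0.68, 0.72 and 0.80. Of 20 Toll-like receptor genes and their partners, Irak3, a brake on this signalling, was lower in MEF, at 2.95 RPKM with 4-OHT and 5.62 RPKM with ethanol. Of 21 genes of metal handling, Mt1 and Mt2 are listed in MEF, and Mt2, Mt3, Hmox1 and Slc30a10 in NPC. Hmox1, which degrades haem, stood at 45.2 RPKM with 4-OHT and 24.9 RPKM with ethanol, and the manganese exporter gene Slc30a10 at 0.944 RPKM and 0.470 RPKM.

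**Figure D4:**
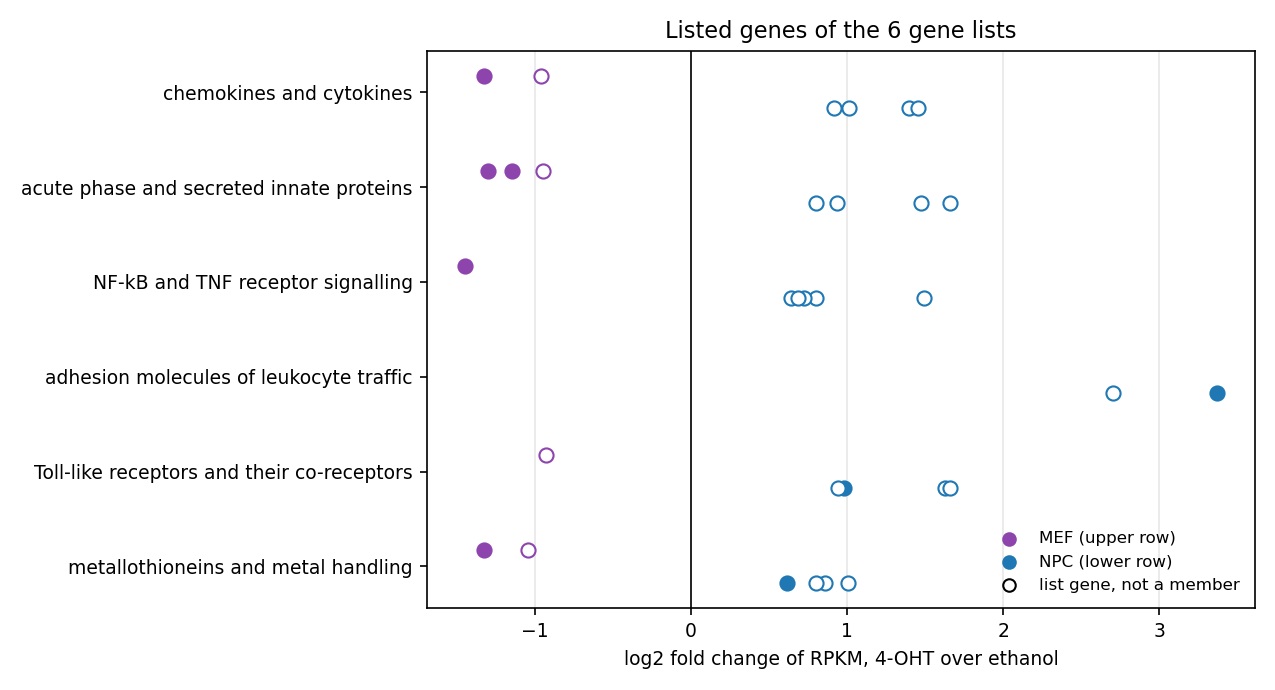
Log2 fold change of 4-OHT over ethanol (x axis) of every listed gene in the 6 lists, with MEF in the upper and NPC in the lower row of each list. Filled points are members and open points other list genes; the 9 MEF points lie left of 0 and the 23 NPC points right of 0.

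In NPC the direction of listed genes moved with their level. Of the 23 list genes, 17 had under 2 RPKM in the higher arm, where 77.9% of all 878 listed genes were higher. The other 6 had at least 2 RPKM, where 44.4% of all 1538 listed genes were higher, and all 6 were higher: Cx3cl1, Cp, Tnfrsf1a, Mt2, Mt3 and Hmox1. Of these Mt2 is a member, whose direction the choice had fixed, and no test was made on the count. Icam1 and Cd14 belong to the 17. In MEF, 8 of the 9 list genes had at least 2 RPKM, where 58.0% of all 88 listed genes were lower, and Traf1 was the exception, with 4 of 23 listed genes lower at its level. The 8 include the members Cxcl3, Chi3l1, Hp and Mt2. They and Traf1 were chosen for their fall.

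**Figure D5:**
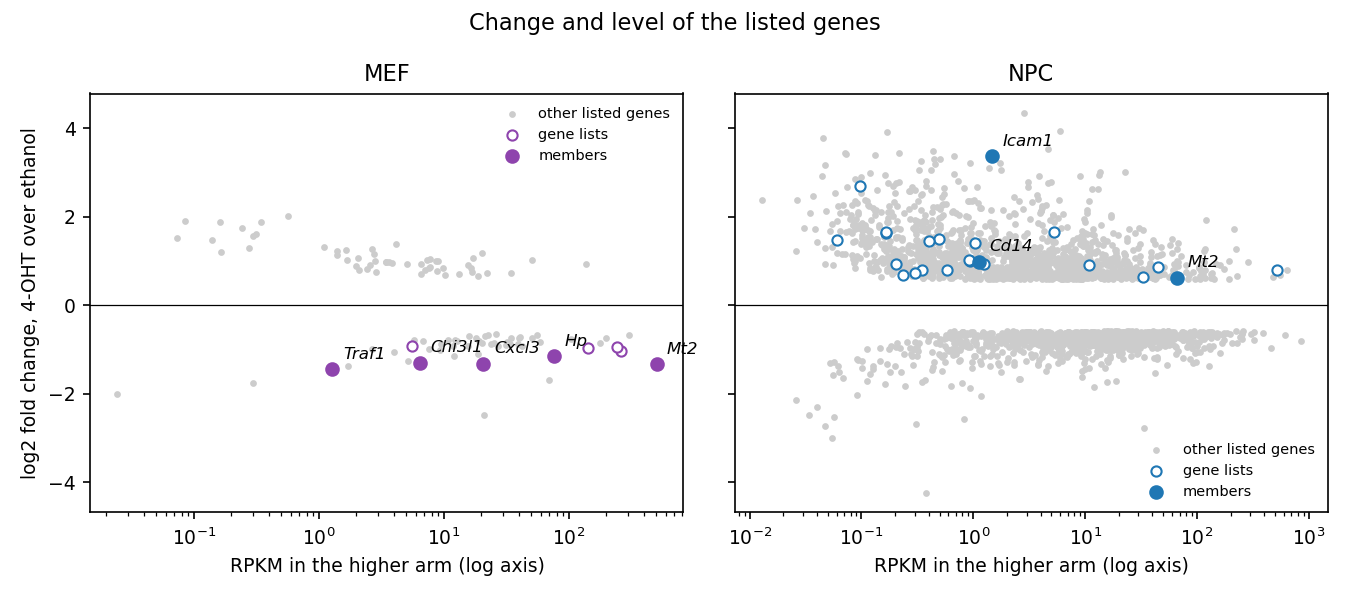
Log2 fold change of 4-OHT over ethanol (y axis) against RPKM in the higher arm (x axis, log) for the genes listed in MEF (left) and NPC (right), leaving out genes at 0 in ethanol. Filled points are members, open points other genes of the 6 lists and grey dots all other listed genes; Icam1 and Cd14 lie where most NPC points are above 0, while Mt2 lies where points above and below 0 mix.

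The fixed lists do not hold every inflammatory gene. A count was made, after the values were seen, over listed symbols that begin as those of interleukins, CC, CXC and CX3C chemokines and their receptors, TNF ligands, receptors and induced genes, Nfkb, Traf, Toll-like receptors and Irak. In MEF it gave 5 lower and 1 higher, and without the members Cxcl3 and Traf1 it gave 3 lower and 1 higher, beside 49.5% lower among all listed genes. The higher one was Cxcl13, and one of the lower ones was Tnfsf11, which encodes the osteoclast factor RANKL, at 13.8 RPKM with 4-OHT and 25.0 RPKM with ethanol. In NPC the same symbols gave 22 higher and 3 lower, beside 56.6% higher among all listed genes. Of these 25, 13 had under 2 RPKM in the higher arm, where 12 were higher, beside 77.9% of all listed genes at that level. The lower ones were Il17d, at 2.12 RPKM with 4-OHT and 3.46 RPKM with ethanol, Tnfaip8l1, at 1.67 RPKM and 2.67 RPKM, and Il12rb2, at 0.288 RPKM and 0.460 RPKM.

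For each member the 3 listed genes nearest to it were found in the plane of log2 RPKM of the 2 arms. Those of Cxcl3 in MEF were Tk1, Zc3h12a and Cenpa, at distances of 0.16, 0.42 and 0.43. Zc3h12a encodes an RNase that degrades cytokine mRNAs, while Tk1 and Cenpa are genes of proliferating cells. Chi3l1 lay nearest to Irak3 (0.26), Cdca5 (0.27) and Pold1 (0.39), and Hp to Bnip3 (0.39), Hmgn2 (0.46) and Stmn1 (0.62). Mt2 had few neighbours at its level in MEF, with Fam162a at 0.73, Mt1 at 1.13 and Ptx3 at 1.26, and Traf1 had Rasl12 at 0.63, Mybl2 at 1.86 and Cobl at 1.87, of which Cobl was higher. In NPC, Icam1 lay nearest to the brain genes Car10 (0.20) and Gria1 (0.45) and to 9530053A07Rik (0.52). Cd14 lay nearest to Scml4, Tmem53 and 4922501L14Rik (0.02 to 0.10) and Mt2 to Snrnp200 (0.06), Pbxip1 (0.23) and Prnp (0.26). With 1 value in each of 2 arms, such nearness describes level and fold alone.

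Markers of other cells were looked up beside these results. Of 19 microglia and macrophage markers and 14 markers of other leukocytes, 0 are listed in MEF and 0 in NPC, and their levels are therefore not known. Outside these lists, the macrophage gene Mpeg1, chosen after its values were seen, was higher in NPC. It stood at 0.437 RPKM with 4-OHT and 0.196 RPKM with ethanol. The leukocyte integrin gene Itgb2 described above was higher as well. The leukocyte genes Coro1a and Sykb, also chosen after their values were seen, were lower in NPC, with log2 fold changes of -0.83 and -0.72. These few genes were picked by hand and do not give the direction of leukocyte genes as a whole. Other listed leukocyte genes, Cd80 and Cd38 among them, were higher in NPC. The part of leukocyte genes in the values of Icam1 and Cd14 was not tested. Of 10 endothelial markers, Flt1 and Tek are listed in NPC, summing to 0.258 RPKM with 4-OHT and 0.146 RPKM with ethanol. Of 10 astrocyte markers, Gfap, Aqp4, Aldh1l1, Slc1a2 and Gjb6 were all higher in NPC, summing to 139 RPKM with 4-OHT and 79.2 RPKM with ethanol. Most of that sum is Aldh1l1, at 118 RPKM with 4-OHT and 67.7 RPKM with ethanol, while Gfap stood at 1.10 RPKM and 0.221 RPKM. Of 12 fibroblast markers, Postn is listed in NPC, at 0.396 RPKM with 4-OHT and 0.214 RPKM with ethanol. Among progenitor markers Hes5, a Notch effector gene, stood at 4.77 RPKM with 4-OHT and 15.8 RPKM with ethanol. The 5 listed astrocyte markers thus had the direction of Icam1, Cd14, Mt2 and Mt3 in NPC, and their part in those values was not tested. The other astrocyte markers are not listed and have no value. Among all listed NPC genes 56.6% were higher, and 77.9% of those under 2 RPKM in the higher arm, where Gfap and Gjb6 lie. In these bulk samples a change in the share of a cell type and a change of RNA per cell cannot be told apart.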

How the data were processed

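The authors used CASAVA 1.8 for base calls, Bowtie2 2.0.0.6 and TopHat2 2.03 for alignment to the mm9 genome, and compared expression with Cuffdiff 2.02, per the submitters' processing notes. Libraries were made with the TruSeq kit v2 from 1 ug of total RNA, per the labels' protocols. The deposited tables hold a single RPKM value per arm and gene, as the file headers name it. Beside it the authors deposited a log2 fold change and a Cuffdiff p-value without adjustment. Log2 and linear folds of RPKM, 4-OHT over ethanol, were recomputed and differed from the deposited log2 values by at most 0.001. The deposited splicing tables were read only for the genes with an event. Genes at 0 RPKM in ethanol, 2 in MEF and 10 in NPC, were given no fold but were counted as higher. The median log2 value of 1.00 over the higher NPC genes ranks them as the largest, while the median of 1.99-fold leaves them out.

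The members and lists were chosen with earlier results of these data known. No test was run here, since each arm has 1 value. The Cuffdiff p was also adjusted (Benjamini-Hochberg) as if all 55341 annotated gene names had been tested, which gives an upper bound, and the code for it and for the motif search was tested on simulated data. Named genes are the members, listed genes of the fixed lists and of the members' families, the 3 nearest genes of each member and genes lower in MEF and higher in NPC. Others are said to be chosen after their values were seen, save Prmt5 and the genes at the limits of listing. Sequences, chromosomes and neighbours come from RefSeq (GRCm38.p6) and transcripts from GENCODE M21. Alternatives were stricter limits of p, fold and level, and pseudocounts of 0.1 and 1 RPKM. Python 3.11.15 with pandas 2.3.3 was used.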

Additional observations from a re-analysis of the deposited data

How the results depend on the processing

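Counts depended on the limit used. The list genes counted here include the members. With a deposited p under 0.01, 3 list genes were lower in MEF, the 2 members Mt2 and Cxcl3 and the gene Mt1. Under that limit were 6 of the 55 lower genes, which is 5.41% of the 111 listed genes. By the upper bound of the Benjamini-Hochberg adjusted Cuffdiff p, 0 members and 0 list genes were under 0.05 in MEF. Prmt5 was the single lower gene to pass there. In NPC, 15 list genes were higher and passed, among them the 2 members Icam1 and Mt2 (bound 0.00289). So did 947 of the 1367 higher genes (39.2% of listed genes), while Cd14 had a bound of 0.0630. With an absolute log2 fold change of at least 1, 11 list genes were higher in NPC, with Icam1 the 1 member among them. Of all 1367 higher genes 680 reached that limit (28.1% of listed genes). In MEF 6 list genes were lower by that limit, the 5 members and Mt1, beside 16 of the 55 lower genes (14.4% of listed genes). Where the higher arm reached 1 RPKM, 10 of the 23 list genes were higher in NPC, the 3 members among them. Of all 1367 higher genes, 824 reached that level (34.1% of listed genes). The limits for list genes were added after the data were seen. Adding 0.1 or 1 RPKM turned the direction of 0 of the 8 member values. The fold of 3 values fell most with 1 RPKM added, to log2 values of -0.64 for Traf1 in MEF and 0.44 for Cd14 and 1.12 for Icam1 in NPC. No paired analysis was possible because the tables hold 1 value per arm, and for the same reason no replicate could be left out. Depth is unknown, so counting error at low RPKM cannot be given.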
